A study of Homo sapiens with 9 samples.

Results

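Hepatocyte identity is held by a small set of DNA-binding proteins that switch on liver genes together and also regulate each other. The 8 genes described here encode such liver lineage transcription factors: FOXA1 and FOXA2, CEBPA, HNF4A, ONECUT1, PROX1, NR1H4 and NR5A2. They were taken by symbol from a table of 62703 genes, whatever their level, and each symbol stood on 1 row. RNA sequencing gave the transcript levels of 9 libraries from cells whose label is HepG2, a hepatocellular carcinoma line that is known for secreting albumin and other plasma proteins and for expressing HNF4A, FOXA1 and FOXA2. All cells were exposed to palmitic acid, a saturated fatty acid, at 750 µM for 24 h. A group of 3 libraries had palmitic acid only. In another 3, the exposure was followed by curcumin, the yellow polyphenol of turmeric, at 20 µM for 12 h. The last 3 had curcumin at 20 µM together with CuCl2 at 5 µM for 12 h. Cells without palmitic acid and a vehicle for curcumin are not among the labelled groups, and the labels add no 12 h to the palmitic acid group, so time and treatment cannot be told apart. The questions asked were which of the 8 genes these cells express and whether their levels differed between the treatments.

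The unit is TPM, a transcript level in which the reads of a gene are divided by its length and every library is scaled to the same total, so levels can be compared between genes. Depth is unknown, because TPM keeps no read number, and the smallest step in the table is 0.01 TPM. The 9 libraries held 13208 to 13737 genes at 1 TPM or more, and mitochondrial genes took 10.1% to 13% of the TPM. No library was set apart by the labels, which name no batch, date or separate culture. The p-values below thus speak of how far these libraries scatter, and that scatter may be technical.

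In liver, FOXA1 and FOXA2 are pioneer factors that open packed chromatin, and PROX1 and ONECUT1 act early in the liver bud and in the choice between hepatocyte and bile duct fate. HNF4A, NR1H4 and NR5A2 belong to the nuclear receptor family and drive lipoprotein, clotting factor and bile acid genes. CEBPA is a leucine zipper factor of the mature hepatocyte, and of fat and myeloid cells.

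Promoter sequences are shown first, because the members differ in how dense their promoters are in CpG dinucleotides. FOXA1 and CEBPA, the members expressed in these cells, have dense promoters, but so does ONECUT1, which is nearly silent. HNF4A and NR1H4 do not, and NR5A2 has both kinds. RefSeq windows on GRCh38.p14, from 250 bases before to 50 bases after an annotated start, were found for 6 of the 8 genes, as 8 windows. FOXA2 and PROX1 had no entry. Each run is written 5′ to 3′ on the strand of the gene, and the capitals mark CpG dinucleotides. FOXA1 lies at chr14:37595200-37595499 on the minus strand, CEBPA at chr19:33302485-33302784 on the minus strand and ONECUT1 at chr15:52790287-52790586 on the minus strand. The downstream of the 2 HNF4A starts lies at chr20:44400989-44401288 on the plus strand, and NR1H4 at chr12:100503110-100503409 on the plus strand.
FOXA1: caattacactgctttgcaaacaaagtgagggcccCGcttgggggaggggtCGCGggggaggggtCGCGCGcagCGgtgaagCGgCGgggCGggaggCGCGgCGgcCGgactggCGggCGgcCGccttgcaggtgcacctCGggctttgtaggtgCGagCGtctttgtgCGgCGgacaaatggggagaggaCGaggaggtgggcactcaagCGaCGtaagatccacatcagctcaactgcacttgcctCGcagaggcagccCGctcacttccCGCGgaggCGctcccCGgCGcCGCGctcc
CEBPA: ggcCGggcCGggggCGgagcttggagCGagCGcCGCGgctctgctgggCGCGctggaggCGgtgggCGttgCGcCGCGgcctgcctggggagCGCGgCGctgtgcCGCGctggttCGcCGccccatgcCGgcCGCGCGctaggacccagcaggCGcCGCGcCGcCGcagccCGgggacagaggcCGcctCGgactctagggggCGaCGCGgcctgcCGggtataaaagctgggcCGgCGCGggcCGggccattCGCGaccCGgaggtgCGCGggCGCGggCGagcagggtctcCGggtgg
ONECUT1: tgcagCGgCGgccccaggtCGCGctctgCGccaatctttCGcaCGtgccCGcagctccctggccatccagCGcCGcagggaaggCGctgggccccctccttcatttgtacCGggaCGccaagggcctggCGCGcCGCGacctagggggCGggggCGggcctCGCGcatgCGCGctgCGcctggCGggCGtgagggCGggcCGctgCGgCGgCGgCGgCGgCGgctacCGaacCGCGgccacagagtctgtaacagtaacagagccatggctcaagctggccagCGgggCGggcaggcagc
HNF4A: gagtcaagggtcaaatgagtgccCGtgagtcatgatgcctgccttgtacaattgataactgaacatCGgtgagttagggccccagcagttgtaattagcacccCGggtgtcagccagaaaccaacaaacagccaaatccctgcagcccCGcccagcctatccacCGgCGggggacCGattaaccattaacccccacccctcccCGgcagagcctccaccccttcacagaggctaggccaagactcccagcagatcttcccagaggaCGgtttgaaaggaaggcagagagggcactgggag
NR1H4: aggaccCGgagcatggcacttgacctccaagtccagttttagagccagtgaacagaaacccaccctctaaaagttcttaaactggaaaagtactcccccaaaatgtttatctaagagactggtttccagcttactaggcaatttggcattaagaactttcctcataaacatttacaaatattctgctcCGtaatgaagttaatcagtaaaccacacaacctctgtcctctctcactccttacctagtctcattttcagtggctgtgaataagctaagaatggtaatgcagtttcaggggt

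The window of FOXA1 held 34 CpG dinucleotides at 69.3% GC, that of CEBPA 50 at 80.7% GC and that of ONECUT1 39 at 75% GC. HNF4A held 9 in the window printed and 11 in the window of its upstream start, at chr20:44355449-44355748. NR1H4 held 2. The windows of NR5A2 held 0 at chr1:200027460-200027759 and 16 at chr1:200042341-200042640. Measured as the CpG number over that expected from base composition, the ratio was 0.966 for FOXA1, 1.05 for CEBPA and 0.927 for ONECUT1, against 0.409 and 0.364 for HNF4A, 0.158 for NR1H4, and 0 and 0.769 for NR5A2. By a rule of at least 50% GC and a ratio of at least 0.6, 4 of the 8 windows were CpG-rich. They belonged to FOXA1, CEBPA, ONECUT1 and the downstream start of NR5A2.

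A set of 6 short motifs was searched on both strands of every window, and their letters can overlap. GGGCGG, the GC box bound by SP1, was present 2 times in FOXA1, 2 times in CEBPA, 4 times in ONECUT1 and 1 time in each HNF4A window, and 45% of all 35116 windows held it. TATAAA was present 1 time in CEBPA and 1 time in the upstream window of NR5A2, against 11.5% of all windows. GTTAAT, the core of a homeodomain site found in liver promoters, was present 2 times in the downstream window of HNF4A, 1 time in NR1H4 and 1 time in the downstream window of NR5A2, against 6.88% of all windows. AGGTCA, the nuclear receptor core, was present 1 time in NR1H4 and 1 time in the upstream window of NR5A2, against 13.8%. TGTTTAC, the forkhead core, was present 1 time in the downstream window of NR5A2, against 3.42%. TTGCNNAA, a loose form of the site bound by CEBP factors, was in none of the 8 windows, against 10.5% of all. A match describes these letters only and is not a measured binding site.

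Of the 8 genes, 2 were expressed above 1 TPM and 6 (75%) were below it. CEBPA was the highest at 5.59 ± 0.389 TPM (SD over the 9 libraries) and FOXA1 was next at 4.31 ± 0.401 TPM. The libraries of these 2 genes did not overlap in level, although the lowest value of CEBPA, 4.84 TPM, stood next to the highest of FOXA1, 4.83 TPM. Far below came HNF4A at a mean of 0.148 TPM, then ONECUT1 at 0.0178 TPM, NR1H4 at 0.0144 TPM and NR5A2 at 0.00333 TPM. FOXA2 and PROX1 were listed at 0 in all 9 libraries. For background, 43.5% of the 19856 protein-coding genes in the table had a mean under 1 TPM and 14.2% were listed at 0 throughout. Even the 2 expressed members were modest for expressed genes: CEBPA stood above 30.5% and FOXA1 above 25.5% of the 13443 genes whose mean reached 1 TPM, and the protein-coding genes at or above that level had a median of 16.9 TPM. In bulk RNA, few cells with much of a transcript and many cells with little of it cannot be told apart.

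**Figure D1:**
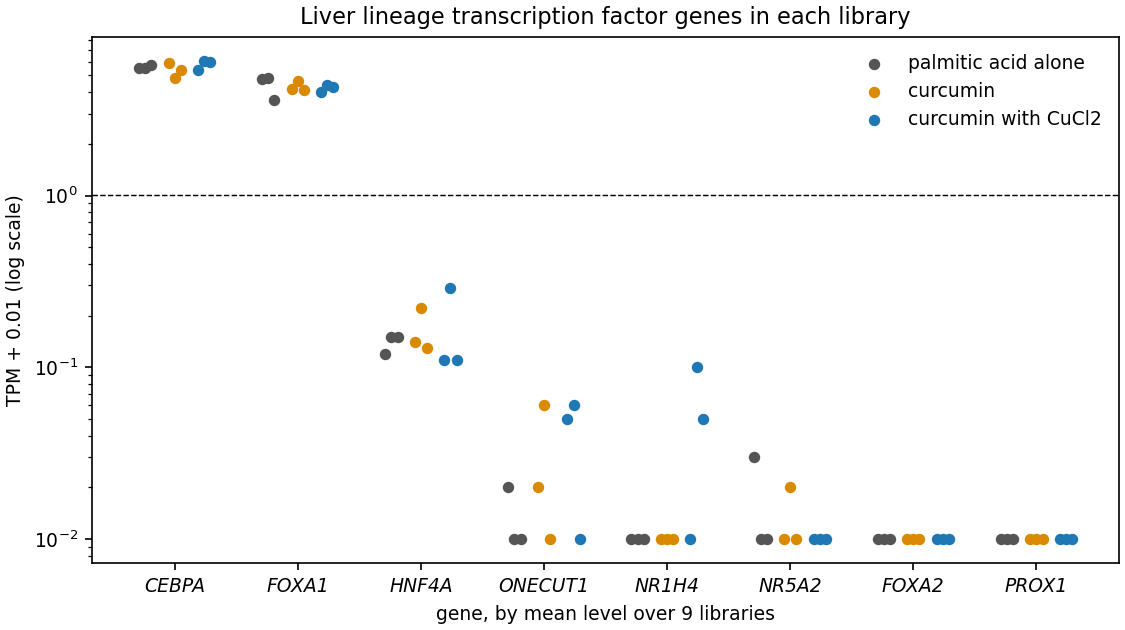
TPM + 0.01 on a log axis for each of the 8 genes, ordered by mean level, with 1 point for each library coloured by treatment and a dashed line at 1 TPM. The points of CEBPA and FOXA1 lie between 3.58 and 6.09 TPM, HNF4A lies between 0.1 and 0.28 TPM, and most points of the other genes rest on the lower edge, which is 0 TPM.

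FOXA1, the forkhead pioneer factor found in liver and also in mammary, prostate and airway epithelium, is encoded at chr14:37589984-37596059 on the minus strand of GRCh38 (ENSG00000129514). Palmitic acid alone gave 4.79, 4.83 and 3.58 TPM, and the values were 4.15, 4.63 and 4.11 TPM with curcumin, and 4.02, 4.37 and 4.3 TPM with curcumin and CuCl2. The highest and the lowest library both had palmitic acid alone, the other groups fell between them, and all 3 groups overlapped. The group means were 4.4 ± 0.71, 4.3 ± 0.289 and 4.23 ± 0.185 TPM (SD, n = 3). The difference in log2(TPM + 1) from palmitic acid alone was -0.02 with curcumin (SE 0.13, limma adjusted p = 0.98) and -0.04 with curcumin and CuCl2 (adjusted p = 0.953). Between the curcumin groups it was -0.02 (adjusted p = 1). None of the 3 differences passed the threshold of 0.05. The 95% confidence intervals allow 0.799-fold to 1.22-fold for curcumin, 0.79-fold to 1.2-fold for curcumin with CuCl2, and 0.801-fold to 1.22-fold between the curcumin groups, on a scale of TPM + 1 that understates changes of low genes. Without the third library with palmitic acid alone, the differences from that group were -0.13 (adjusted p = 0.513) and -0.15 (adjusted p = 0.459).

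CEBPA, which promotes differentiation and restrains cell division in hepatocytes, is encoded at chr19:33299934-33302564 on the minus strand (ENSG00000245848). It was measured at 5.52, 5.5 and 5.73 TPM under palmitic acid alone, 5.89, 4.84 and 5.36 TPM with curcumin, and 5.37, 6.09 and 6.01 TPM with curcumin and CuCl2. Curcumin held the lowest library and curcumin with CuCl2 the highest, and all 3 groups overlapped. The means were 5.58 ± 0.127, 5.36 ± 0.525 and 5.82 ± 0.395 TPM (SD, n = 3). On the log2(TPM + 1) scale the difference from palmitic acid alone was -0.05 for curcumin (SE 0.11, limma adjusted p = 0.918) and 0.05 for curcumin with CuCl2 (adjusted p = 0.928), and 0.1 between the curcumin groups (adjusted p = 1). The confidence intervals ran from 0.807-fold to 1.15-fold, from 0.866-fold to 1.24-fold and from 0.898-fold to 1.28-fold. An antisense transcript, AC008738.3, overlaps CEBPA and had a mean of 2.83 TPM, from 0.88 to 4.21 TPM over the libraries. The library kit keeps the strand, but whether the authors' counting used it is not given in the sources used here, so the split of reads between these transcripts is uncertain. FOXA1 is likewise overlapped on the other strand by TTC6, at 0.837 TPM.

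Counts of genes past the threshold over the whole table set the scale for these results. With curcumin, 264 of 13443 genes (1.96%) differed from palmitic acid alone, 102 higher (0.759%) and 162 lower (1.21%). With curcumin and CuCl2 the number was 194 (1.44%), 73 higher (0.543%) and 121 lower (0.9%). Between the curcumin groups it was 0 (0.0%) in limma, with 0.0% higher and 0.0% lower, while 215 genes had an unadjusted p under 0.05 there. Of the 2 members tested, 0 were called in each of the 3 comparisons. The median difference over all genes tested was -0.02, -0.03 and -0.01 on the log2 scale.

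HNF4A, the nuclear receptor often called the master regulator of hepatocyte genes, spans chr20:44355700-44434596 on the plus strand (ENSG00000101076). It was above 0 in all 9 libraries but never reached 1 TPM. The values were 0.11, 0.14 and 0.14 TPM under palmitic acid alone, 0.13, 0.21 and 0.12 TPM with curcumin, and 0.1, 0.28 and 0.1 TPM with curcumin and CuCl2. The second library of each curcumin group was the highest of its group, and the groups overlapped. Fitted with all 31912 genes above 0 in any library, the difference in log2(TPM + 1) was 0.03 in both comparisons with palmitic acid alone (limma adjusted p = 0.943 and 0.923). HNF4A-AS1, the antisense gene inside HNF4A, was listed at 0, while the nearest coding gene at higher coordinates, TTPAL, had 2.73 TPM.

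ONECUT1 (HNF6), at chr15:52756989-52791078 on the minus strand (ENSG00000169856), was above 0 in 5 libraries. It was listed at 0.01, 0 and 0 TPM under palmitic acid alone, 0.01, 0.05 and 0 TPM with curcumin, and 0.04, 0.05 and 0 TPM with curcumin and CuCl2. NR1H4, which encodes the bile acid receptor FXR at chr12:100473708-100564413 on the plus strand (ENSG00000012504), was above 0 in 2 libraries, at 0.09 and 0.04 TPM, both with curcumin and CuCl2. These values lie within 9 steps of the table's resolution, and the third library of that group was listed at 0, as were the 6 libraries of the other groups. The difference between that group and palmitic acid alone was 0.06 (95% confidence interval -0.01 to 0.13, limma adjusted p = 0.654).

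NR5A2, which encodes LRH-1, a receptor for phospholipids that acts on bile acid synthesis, lies at chr1:200027602-200177424 on the plus strand (ENSG00000116833). It was listed at 0.02 TPM in the first library with palmitic acid alone and 0.01 TPM in the second with curcumin, and at 0 in the other 7. FOXA2, at chr20:22581005-22585455 on the minus strand (ENSG00000125798), and PROX1, at chr1:213983181-214041502 on the plus strand (ENSG00000117707), were listed at 0 in each of the 9 and could not be fitted. LINC00261 and LNCNEF, the noncoding genes that flank FOXA2 at 2.36 and 2.07 kb, were listed at 0 as well, and PROX1-AS1 had a mean of 0.00111 TPM. Coding genes farther from PROX1 were expressed, with SMYD2 at 30.6 TPM, 240 kb away.

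In the fit without a filter on low values, 0 of the 4 fitted members under 1 TPM passed the threshold in any comparison. There, 0.326% of genes were called for curcumin, 0.357% for curcumin with CuCl2 and 0.0094% between the curcumin groups. At such levels a fold change says little, because a pseudocount of 1 TPM exceeds the values themselves.

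The CpG content of the promoters was then set against transcript levels over the whole table. Among 25627 windows whose gene is in the table, 14498 (56.6%) were CpG-rich, and the gene of 72.8% of these had a mean of at least 1 TPM, against 31.2% for the other 11129 windows. Genes under 0.1 TPM made up 16.9% of the CpG-rich windows and 53.9% of the others. FOXA1 and CEBPA were CpG-rich and expressed. ONECUT1, with a window of similar composition, and NR5A2, through its downstream window, were CpG-rich and nearly silent. Of the 4 members with a CpG-rich window, 2 were thus under 0.1 TPM. HNF4A and NR1H4 had CpG-poor windows and low levels, as most genes of that class did. The only NR1H4 window lies inside the gene, downstream of its first annotated base at chr12:100473708. The only windows of FOXA1 and ONECUT1 likewise lie inside their genes. For these genes no window at the first annotated base was examined. The downstream windows of HNF4A and NR5A2 also lie inside their genes. Genes can have several windows, and DNA methylation was not measured.

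**Figure D2:**
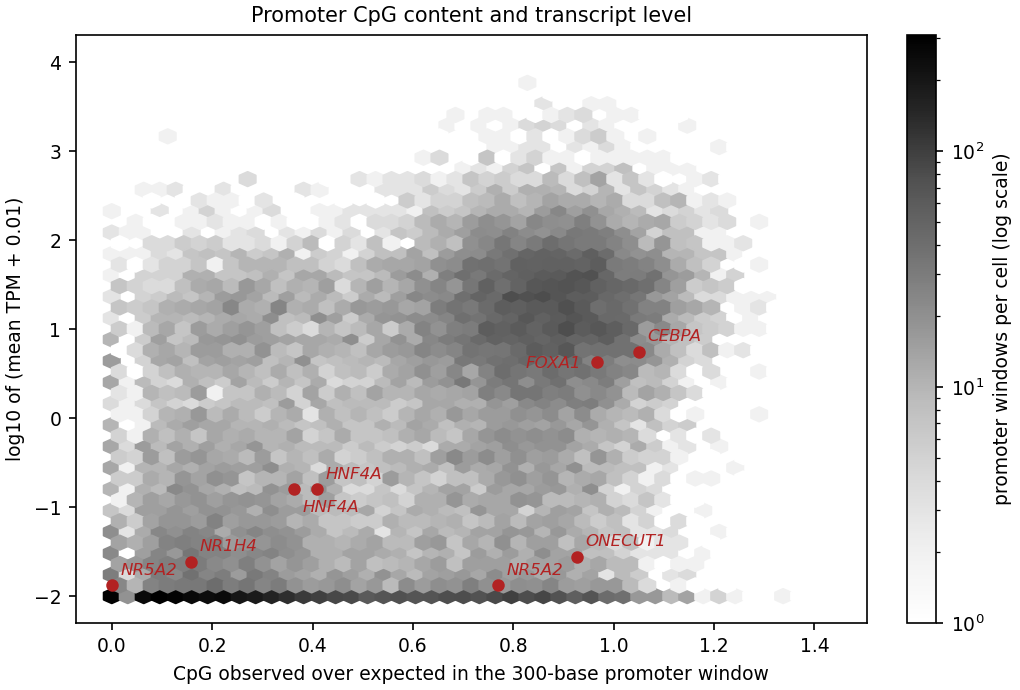
Grey cells count promoter windows of all genes in the table by CpG observed over expected (horizontal) and by log10 of mean TPM + 0.01 (vertical); windows beyond the right edge are not drawn. Red points are the 8 windows of 6 members: FOXA1 at 0.966 and CEBPA at 1.05 lie in the dense region of expressed genes, and ONECUT1 at 0.927 lies far below it.

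FOXA1 moved with the composition of the libraries. The share of TPM on mitochondrial genes was 13%, 12.5% and 10.1% in the palmitic acid libraries. Curcumin libraries had 10.4%, 12.4% and 10.9%, and those with added CuCl2 had 10.7%, 11.8% and 11.4%. Across the 9 libraries FOXA1 correlated with that share at Pearson r = 0.941 (exact permutation p = 0.000124, adjusted p = 0.000372 over 3 relations) and Spearman rho = 0.933 (exact permutation p = 0.00075, adjusted p = 0.00225), two-sided. Without the 2 libraries farthest from the median share, both with palmitic acid alone, r was again 0.941 over 7 libraries. The relation is not particular to FOXA1 by this measure, since 5.17% of 13443 genes had an r at least as high. CEBPA gave r = -0.298 (exact permutation p = 0.443, adjusted p = 0.525) and rho = -0.167 (p = 0.678, adjusted p = 0.713), and its r was -0.299 without the same 2 libraries. HNF4A gave r = 0.254 (exact permutation p = 0.525, adjusted p = 0.525) and rho = 0.143 (p = 0.713, adjusted p = 0.713), with r = 0.528 without the 2 libraries. Groups of 3 libraries are too small for a correlation within a treatment. With the share as a covariate, an alternative added after the data had been seen, the difference of FOXA1 was 0.046 for curcumin and 0.018 for curcumin with CuCl2, and neither passed. What sets this relation was not tested.

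**Figure D3:**
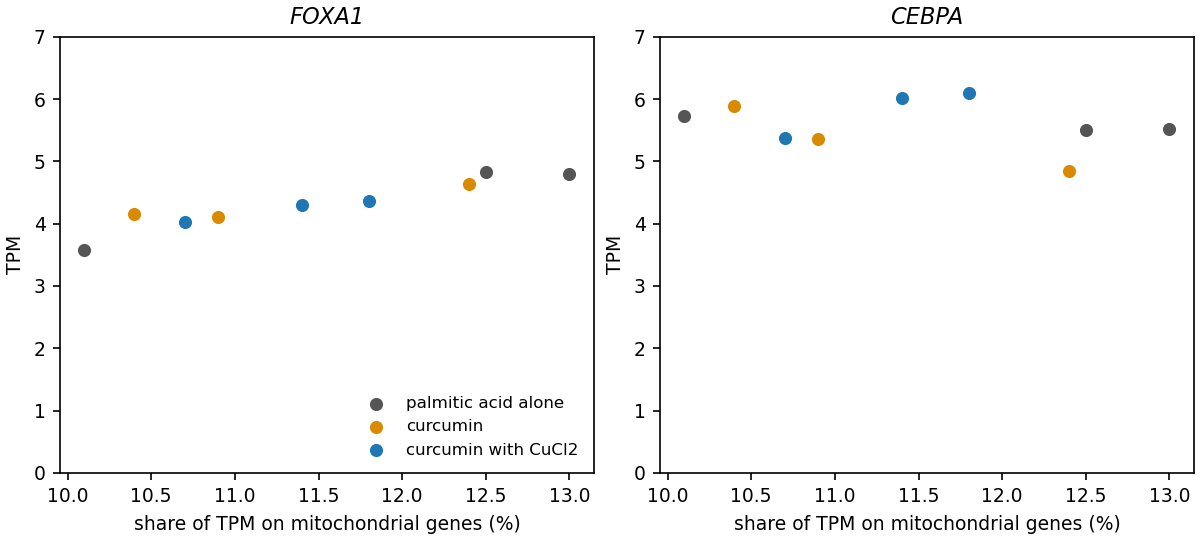
TPM of FOXA1 (left) and CEBPA (right) against the percentage of TPM on mitochondrial genes, with 1 point for each of 9 libraries coloured by treatment. FOXA1 runs from 3.58 TPM at 10.1% to 4.79 TPM at 13%, and CEBPA runs from 5.73 to 5.52 TPM between the same libraries.

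The genes most like FOXA1 across the 9 libraries, among 8832 named genes whose mean reached 5 TPM, were UCHL5 (r = 0.989), SUPT20H (0.988), CCNT2 (0.983), ANXA1 (0.981) and RAB23 (0.98). For CEBPA they were WASHC1 (r = 0.908), EMC9 (0.844), TKFC (0.837), CA9 (0.834) and MYPOP (0.825). These r values are given as a description, since all genes of a library share its unknown depth and its composition.

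Paralogs share a protein family with a member, and some but not all can bind the same DNA sites, so they were set beside the members. Binding was not measured. Among 13 paralogs, 6 had a mean under 1 TPM. FOXA3, the forkhead gene that completes the liver FOXA group, was at 0.0256 TPM, HNF4G at 0.0689 TPM and NR5A1 at 0.05 TPM. Among paralogs of the members under 1 TPM, those above it were ONECUT2 at 3.75 TPM and the oxysterol receptors NR1H2 at 65 TPM and NR1H3 at 25.7 TPM. In the family of CEBPA, 4 listed paralogs had higher levels and CEBPE was lower, at 0.0244 TPM. DDIT3 (CHOP), a stress-induced CEBP factor, had 610 TPM, CEBPB 119 TPM, CEBPD 65.3 TPM and CEBPG, whose gene lies 70.8 kb from CEBPA, 38.2 TPM.

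Of the 7 paralogs tested, 1 passed the threshold, as higher with curcumin, against 0.759% of all genes tested. This was NR1H3, which encodes the oxysterol receptor LXR alpha. Its level was 18.93, 18 and 22.59 TPM under palmitic acid alone, 29.31, 30.36 and 31.05 TPM with curcumin, and 27.9, 24.32 and 28.9 TPM with curcumin and CuCl2. Both curcumin groups lay above palmitic acid alone in every library, though how many of all genes separate in this way was not counted. The difference was 0.59 with curcumin (SE 0.1, limma adjusted p = 0.0268) and 0.43 with curcumin and CuCl2 (adjusted p = 0.0854, not past the threshold). The call for curcumin held in 8 of 19 alternatives, with adjusted p from 0.00597 to 0.14. Median-of-ratios scaling (0.0686), no filter (0.0628), no variance trend (0.05) and only the 2 groups compared (0.14) each lost the call. It was lost without the first or second library with palmitic acid alone (0.0869 and 0.0977), without any 1 library with curcumin (0.0877, 0.089 and 0.12) and without library 1 or 3 with CuCl2 (0.0646 and 0.0652). For curcumin with CuCl2 it was gained without the third library with palmitic acid alone (0.023) and with the mitochondrial share as a covariate (difference 0.39, adjusted p = 0.0196).

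CEBPB and CEBPD, activators of the acute phase response, were examined after their values had been seen. CEBPB was at 139.02, 148.01 and 136.48 TPM under palmitic acid alone, 119.88, 88.67 and 109.44 TPM with curcumin, and 95.04, 119.41 and 111.26 TPM with curcumin and CuCl2. CEBPD was at 80.1, 81.06 and 78.2 TPM, then 60.95, 48.44 and 63.82 TPM, then 53.05, 63.07 and 58.87 TPM. In both genes every library with curcumin lay below every library with palmitic acid alone, and the curcumin groups overlapped each other. The share of all genes whose groups separate in this way was not counted, so the separation is a description only. The differences were -0.42 and -0.38 for CEBPB (limma adjusted p = 0.125 and 0.172) and -0.47 and -0.45 for CEBPD (adjusted p = 0.068 and 0.082), and none of these 4 passed the threshold.

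**Figure D4:**
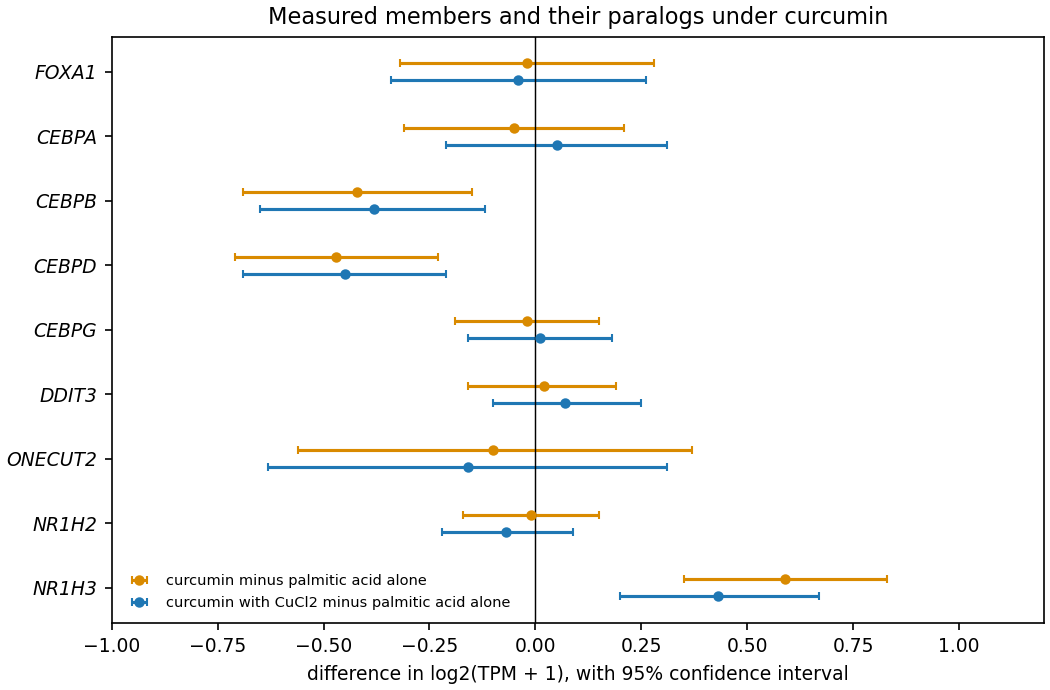
Differences in log2(TPM + 1) from palmitic acid alone, with 95% confidence intervals from limma, for FOXA1, CEBPA and the 7 paralogs tested, for curcumin (orange) and curcumin with CuCl2 (blue). The intervals of FOXA1 and CEBPA straddle 0, those of NR1H3 lie above it and those of CEBPB and CEBPD below it; both comparisons share the palmitic acid libraries.

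Genes that the members are known to regulate in liver, up or down, were counted next. These lists share genes with each other and with the secreted proteins below, such as ALB, APOB and TTR, so the counts overlap. For background, 43.5% of all protein-coding genes had a mean under 1 TPM. All 11 HNF4A targets listed had a mean under 1 TPM, with APOB, APOC3, F9 and TTR, which encode apolipoproteins, a clotting factor and transthyretin, at 0 in every library. For FOXA targets the count was 7 of 9, with ALB, APOB and TTR at 0. For CEBPA targets it was 7 of 8, with ALB and F9 at 0. The exception in both lists was CPS1, the mitochondrial enzyme that starts the urea cycle, at 309 TPM. Its libraries ran from 263.46 to 357.46 TPM, and neither comparison passed (differences 0.05 and 0.07, limma adjusted p = 0.911 and 0.866).

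IGFBP1, a secreted protein that binds insulin-like growth factors and a FOXA target in liver, was the other expressed gene of its list, and it fell. It was at 3.08, 2.83 and 3.12 TPM under palmitic acid alone, 1.01, 1.02 and 1.54 TPM with curcumin, and 1.33, 1.09 and 1.11 TPM with curcumin and CuCl2. Every library of both curcumin groups lay below those with palmitic acid alone, though the share of all genes that separate so was not counted. The difference was -0.88 in both comparisons (SE 0.15, limma adjusted p = 0.0262 and 0.0274). Whether this is linked to FOXA1, which differed by -0.02 and -0.04, was not tested. At these low levels the size of the IGFBP1 difference depends on the pseudocount. It was -1.29 in both comparisons with 0.1 TPM, and -0.37 and -0.38 with 5 TPM. The calls held in 8 and 10 of 18 alternatives, with adjusted p from 0.00804 to 0.122 and from 0.00833 to 0.127. Without the first or second library with palmitic acid alone both were lost (0.0675 and 0.0676 for curcumin, 0.069 and 0.0719 with CuCl2). Without any 1 library with CuCl2 both were lost as well (0.05 to 0.0616 for curcumin, 0.0887 to 0.127 with CuCl2), and that for curcumin also without the first or second curcumin library (0.0884 and 0.0835). With the replicate numbers as a block the adjusted p was 0.0531 and 0.0563. It was 0.0773 and 0.0861 without the filter, and 0.122 and 0.0556 with only the 2 groups compared.

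Targets of the other members were low with few exceptions. For ONECUT1, 4 of 5 targets were under 1 TPM, with TTR at 0. For NR1H4, 9 of 11 were under 1 TPM, with FETUB and FGF19 at 0. NR0B2 (SHP), the repressor that FXR induces, had a mean of 0.00667 TPM and ABCB11, the bile salt export pump, 0.147 TPM, of which 1 library with CuCl2 held 0.76 TPM. SLC27A5, a bile acid CoA ligase, was at 20.9 TPM and SLC51A, a bile acid transporter subunit, at 2.94 TPM. For NR5A2 and PROX1, 7 of 8 were under 1 TPM, and SCARB1, the receptor for high density lipoprotein, was at 124 TPM. Of these last 3 lists 0 genes passed the threshold in any of the 3 comparisons, among 4 tested.

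The cell type label was checked against plasma proteins that hepatocytes secrete. Of 23 such genes, 22 had a mean under 1 TPM, and ALB, APOA2, APOB, APOC3, APOH, FGB and TTR were listed at 0 in all 9 libraries. The only gene above 1 TPM was VTN (vitronectin) at 7.46 TPM, followed by AMBP at 0.72 TPM and AFP, the fetal albumin known from HepG2, at 0.643 TPM. Summed over the list, the level was 9.23 to 10.4 TPM under palmitic acid alone, 8.25 to 12 TPM with curcumin and 9.15 to 9.82 TPM with curcumin and CuCl2. The levels of most of these genes, and those of HNF4A, FOXA2 and PROX1, go against the label in all 9 libraries. Other liver genes were expressed: FOXA1 at 4.31 TPM, CEBPA at 5.59 TPM and CPS1 at 309 TPM. The cells are therefore called here by their label only. Genes that every cell uses were present: of 20 ubiquitous transcription factors 0 were under 1 TPM, and the lowest was REST at 3.85 TPM.

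Other liver-enriched transcription factors were less uniformly low. Of 27, 11 (40.7%) had a mean under 1 TPM, close to the 43.5% of all coding genes, and GATA4 was listed at 0. The most abundant were XBP1, a factor of the secretory stress response, at 317 TPM, then CEBPB, ATF5 at 66.1 TPM and CEBPD, all of which are widely expressed outside liver. Of the 16 tested, 1 was higher with curcumin, which was NR1H3, against a background of 0.759%. In limma 0 passed with curcumin and CuCl2, and 0 between the curcumin groups. An unadjusted p under 0.05 was reached by 5 of the 16 with curcumin, 5 with curcumin and CuCl2 and 1 between the curcumin groups, against 1885, 1821 and 215 of all 13443 genes. The median differences of the list were -0.08, -0.07 and -0.03.

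**Figure D5:**
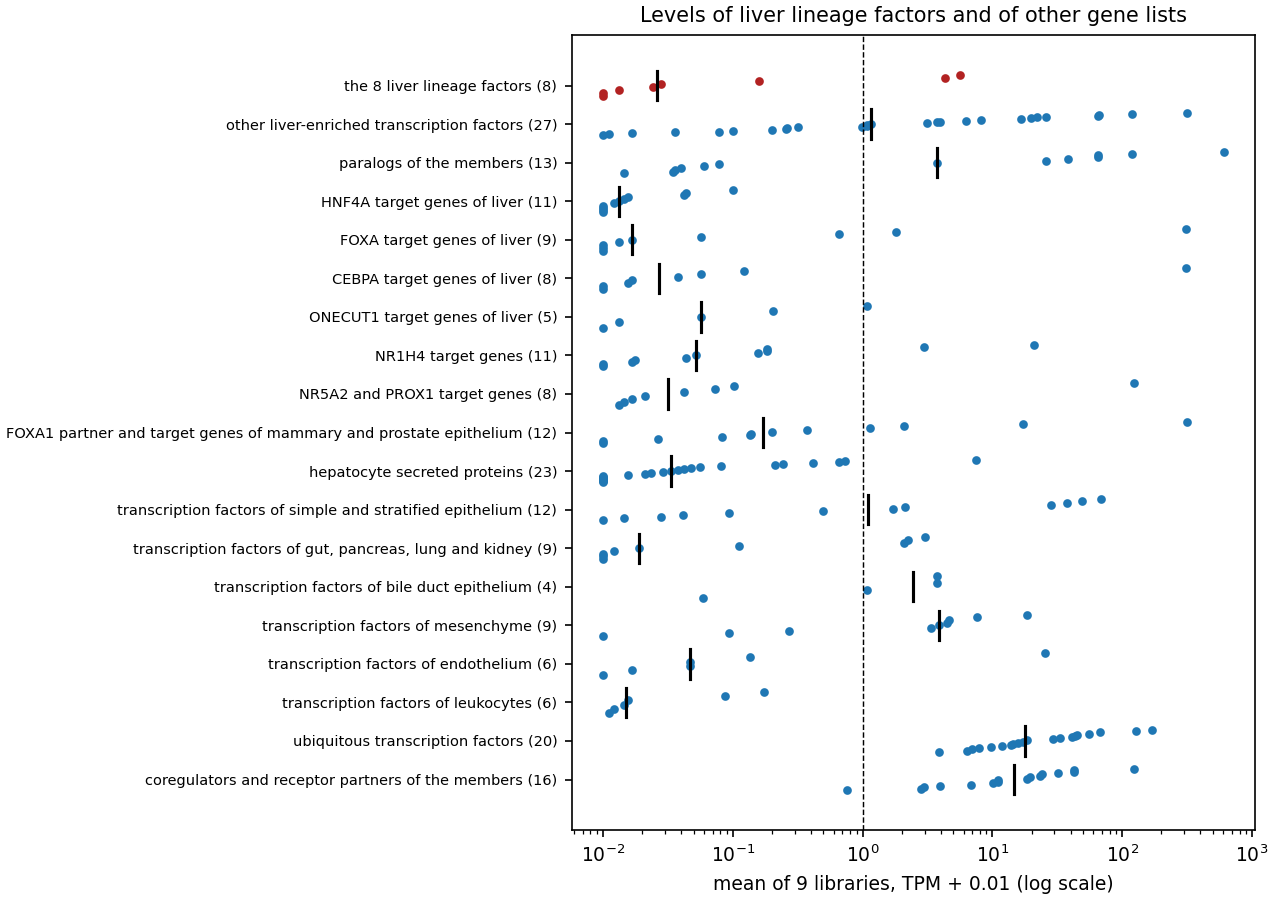
Mean TPM + 0.01 over 9 libraries on a log axis for every gene of 19 lists, with the number of genes in brackets, a black bar at each list's median and a dashed line at 1 TPM. The 8 liver lineage factors (red) and the liver target lists have medians left of the line, while the ubiquitous factors have a median of 17.7 TPM and all lie right of it.

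FOXA1 also works outside liver, in hormone-responsive epithelium. Of 12 partner and target genes of mammary and prostate epithelium, 8 were under 1 TPM, including ESR1, the oestrogen receptor, and KLK3 and TFF3 were listed at 0. XBP1 at 317 TPM, CCND1 at 17.3 TPM, GREB1 at 2.08 TPM and GATA3 at 1.13 TPM were above it, and 0 of these 4 passed the threshold in any of the 3 comparisons. The cofactors through which the members act were expressed more widely: of 16 coregulators and receptor partners, 1 was under 1 TPM (PPARGC1B, 0.744 TPM), and among the highest were GPS2 at 123 TPM, HDAC3 at 42.8 TPM and NCOR1 at 31.8 TPM. RXRA, the partner with which NR1H4 binds DNA, was at 3.93 TPM. In this list 0 of the 15 genes tested passed in the 3 comparisons.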

How the data were processed

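The authors deposited TPM values for 62703 genes and 9 libraries in 1 table, written to 2 decimals, and these were used. Per the submitters' processing notes, HISAT2 2.1.0, RSEM 1.3.3 and GRCh38.p13 were used, with no roles, annotation or strand setting given. RSEM divides reads that match several genes among them, which makes near-identical genes uncertain. Per the labels' protocols, the kit selected polyadenylated RNA and kept the strand. Columns were assigned to samples by name.

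The members and the gene lists were chosen with earlier results of these data known. Values were taken as log2(TPM + 1), and 13443 genes whose mean reached 1 TPM were tested in limma 3.58.1 (R 4.3.3) with 3 group means, a variance trend and Benjamini-Hochberg adjustment over all genes, at 0.05, two-sided. Members below 1 TPM were fitted without that filter, with 31912 genes. TPM gives no counting interval. Gene coordinates and neighbours come from GENCODE 29 (GRCh38), and promoter windows from RefSeq (GRCh38.p14).

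Named are all 8 members, and of each list up to 4 genes with the highest mean, up to 4 listed at 0 and every gene past the threshold. Added to these are the nearest genes and antisense transcripts of a member, and the 5 named genes most correlated with each member above 1 TPM. Other genes named, such as FOXA3, HNF4G, NR5A1, NR0B2, ABCB11, RXRA, ESR1, REST and some of the secreted proteins at 0, were chosen after their values were seen. Some genes that the rule names are not reported here.

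Alternatives left out each library in turn, dropped the variance trend, took the replicate numbers as a block, fitted only the 2 groups of a comparison, used a pseudocount of 0.1 or of 5, dropped the filter or set it at 5 TPM, scaled by median of ratios, or removed mitochondrial genes from the TPM. The mitochondrial share as a covariate, and all alternatives for CEBPA, NR1H3 and IGFBP1, were added after the data had been seen. The fits were tested on simulated data. Exact permutation p-values were computed with numpy 2.4.6, and scipy 1.17.1 gave the ranks and the adjusted p-values of these relations. Figures used matplotlib 3.10.9, all in Python 3.11.15.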

Additional observations from a re-analysis of the deposited data

How the results depend on the processing

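Of 111 differences of FOXA1 and CEBPA under the alternatives, 0 passed the threshold. FOXA1 changed sign for curcumin with median-of-ratios scaling (0.001) and with the mitochondrial share as a covariate (0.046), and for curcumin with CuCl2 with that covariate (0.018). Leaving out 1 library gave -0.13 to 0.039, -0.15 to 0.022 and, between the curcumin groups, -0.043 to 0.027 for FOXA1, with positive values of 0.034, 0.039 and 0.005 for curcumin, 0.017 and 0.022 with CuCl2, and 0.027 and 0.012 between them. For CEBPA the ranges were -0.11 to 0.008, 0.022 to 0.099 and 0.042 to 0.16. FOXA1 and IGFBP1 have no value under a minimum mean of 5 TPM. The number of members under 1 TPM was 6 in all 14 alternatives tried, 2 of which moved the level called low to 0.5 or 2 TPM. The number of other liver-enriched factors was 14 under 2 TPM and 10 under 0.5 TPM, and 10 or 11 in the alternatives that kept 1 TPM.

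The 264 genes called for curcumin became 1505 with the covariate, 104 without a filter, 130 without a variance trend, 35 with only the 2 groups and 54 to 619 without 1 library. The highest count was without the third library with palmitic acid alone. The 194 genes for curcumin with CuCl2 became 1436, 114 without a filter, 65 with only the 2 groups and 46 to 527 without 1 library, the highest again without that library. The 0 genes between the curcumin groups became 3 without a filter, 3 with only the 2 groups, 1 with a pseudocount of 5 and 0 to 4 without 1 library. The cause was not tested.

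Same-numbered libraries deviated from their group means with correlations of -0.269 to 0.246 across genes, so the numbers were not taken to pair the samples. With the replicate block, 177 genes were called for curcumin and 147 for curcumin with CuCl2. Depth is unknown, so a level of 0 means only that the table lists 0 at 2 decimals.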

Other observations

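Transcription factors of other lineages were expressed beside FOXA1 and CEBPA. Of 12 factors of simple and stratified epithelium, 6 were under 1 TPM, while KLF5, a zinc finger factor of proliferating epithelium, had 68.8 TPM, TFAP2A 49 TPM, ELF3 37.2 TPM and KLF4 28.3 TPM. Their sum was 173 to 263 TPM under palmitic acid alone, 158 to 187 TPM with curcumin and 165 to 175 TPM with curcumin and CuCl2, and 0 of the 6 tested passed the threshold in the 3 comparisons. Of 9 factors of mesenchyme, 3 were under 1 TPM and PRRX1 was listed at 0, while SNAI2 had 18.3 TPM, ZEB2 7.55 TPM, TWIST2 4.61 TPM and FOXF1 4.46 TPM. Of 4 factors of bile duct epithelium, SOX9 was at 0.0489 TPM, and SOX4 and ONECUT2 were each at 3.75 TPM.

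Factors of gut, pancreas, lung and kidney were under 1 TPM in 6 of 9 cases, with CDX2, PDX1 and PTF1A listed at 0, and SOX17 at 2.99 TPM and PAX8 at 2.09 TPM. All 6 leukocyte factors were under 1 TPM, the highest at 0.163 TPM. Of 6 endothelial factors 5 were under 1 TPM and FLI1 was listed at 0, with GATA2 at 25.4 TPM. GATA6, a factor of early endoderm chosen after its values were seen, was at 8.14 ± 2.02 TPM under palmitic acid alone, 4.89 ± 0.585 TPM with curcumin and 5.77 ± 0.196 TPM with curcumin and CuCl2 (SD, n = 3). Its libraries with palmitic acid alone lay above all others, but how many of all genes separate in this way was not counted. The differences of -0.62 and -0.41 did not pass (limma adjusted p = 0.108 and 0.295).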
